A study of Mus musculus with 8 samples.

Results

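The Hedgehog pathway was followed through 7 genes in mouse embryonic stem cells with and without TCF/LEF factors: the receptor Ptch1, the decoy receptor Hhip, the transducer Smo, the inhibitor Sufu and the transcription factors Gli1, Gli2 and Gli3. They are 7 of 47729 gene rows in the count files, matched by Ensembl identifier, and all 7 were among the 16515 genes with enough reads to be tested. The set was chosen by the measured Ptch1 levels, which lay below WT in all 3 edited lines. The Ptch1 differences from WT are therefore described without a test, whereas the other 6 members against WT, and all 7 members in comparisons among the edited lines, were tested.

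In the resting pathway, the membrane protein PTCH1 holds SMO inactive, and SUFU restrains the GLI proteins. Binding of a Hedgehog ligand to PTCH1 frees SMO, after which GLI2 and GLI3 shift from repressor to activator forms and switch on targets that include Gli1, Ptch1 and Hhip. Ptch1 and Gli1 transcripts are widely used as a readout of the pathway, and PTCH1 and HHIP in turn limit the ligand.

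RNA was sequenced from E14TG2a cells, a 129/Ola embryonic stem cell line, in 4 groups of 2 libraries, after 48 h in medium with 15% serum and LIF. WT cells carry no edit in the labels, and their libraries are named biological replicates. QKO cells are tagged as lacking both alleles of TCF7, TCF7L1, TCF7L2 and LEF1. The samples titled QT7 are tagged TCF7(-/-), TCF7L1(+/-), TCF7L2(-/-), LEF1(-/-), and those titled QT7L1 are tagged TCF7(+/-), TCF7L1(-/-), TCF7L2(-/-), LEF1(-/-), so title and tag name opposite factors, and the title is used here. All edited lines therefore share the loss of TCF7L2 and LEF1 and differ in TCF7 and TCF7L1. In each edited group replicate 1 is clone A and replicate 2 is clone B, so that a library is also 1 clone, and p-values measure the spread between these libraries. In bulk RNA, fewer cells of a type and less RNA per cell cannot be told apart.

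Libraries held 31573536 to 43362627 counts. The stem cell identity of the libraries was checked on 10 embryonic stem cell markers, which summed to 6263 to 7557 CPM (counts scaled to library size, with TMM factors) with none at 0. Single markers differed from WT at an edgeR adjusted p under 0.05: 2 rose and 2 fell in QKO, and Nanog alone rose in QT7 and QT7L1. All genes stood at 26.4%, 4.62% and 0.745% there. Log2 fold changes of Nanog were 1.00, 0.87 and 0.57 in QKO, QT7 and QT7L1. The 4 targeted genes kept countable transcripts: Tcf7 stood at 59.6 and 61.9 CPM in WT and at 7.97 to 20.9 CPM in the edited libraries, and Tcf7l1 at 73.6 and 68.8 CPM against 22.4 to 39.1 CPM. Tcf7l2 ranged from 4.72 to 8.14 CPM over all 8 libraries, and Lef1 from 2.403 to 6.57 CPM in WT and from 0.212 to 1.33 CPM in the edited libraries. By line, Tcf7 was at 7.97 and 19.7 CPM in QKO, 16.6 and 20.9 CPM in QT7, and 10.1 and 12.7 CPM in QT7L1. Tcf7l1 was at 38.3 and 39.1 CPM in QKO, 27.4 and 22.4 CPM in QT7, and 36.9 and 27.5 CPM in QT7L1. The log2 fold changes of QT7 against QT7L1 were 0.72 ± 0.37 and -0.37 ± 0.15 (SE), neither called (edgeR adjusted p = 0.509 and 0.420). These transcript levels do not settle which of the 2 factors each line kept. Adjusted p-values below are from edgeR's quasi-likelihood test with Benjamini-Hochberg adjustment over all 16515 genes, called under 0.05, and errors of log2 fold changes are standard errors (SE).

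Promoter sequence is shown for Ptch1, which chose the set, and for Smo, whose window was the one of 6 that held a TCF/LEF motif. The 250 bases before the RefSeq start of Ptch1 (GRCm38.p6, chr13:63565736-63565985, minus strand) are printed without capitals, since neither motif was found there. That start lies inside the annotated gene, whose upstream end is at 63573598, and the sequence before that end was not searched. In the Smo line, the first 30 bases after the RefSeq start (GRCm38.p6, chr6:29735497-29735526, plus strand), the capitals mark the motif, which lies on the minus strand.
Ptch1: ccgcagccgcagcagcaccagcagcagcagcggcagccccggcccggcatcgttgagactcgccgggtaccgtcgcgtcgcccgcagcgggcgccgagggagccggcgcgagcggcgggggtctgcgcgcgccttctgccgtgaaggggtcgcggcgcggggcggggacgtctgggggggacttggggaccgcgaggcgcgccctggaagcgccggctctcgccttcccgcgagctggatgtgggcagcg
Smo: ccagctagagcAACAAAGgagcccggtagt
The motifs searched on both strands from 250 bases before to 50 bases after the start were GACCACCCA for GLI, and for TCF/LEF any of the letters CTTTGAT, the letters CTTTGAA, the letters CTTTGTT, or the letters CTTTGTA. RefSeq windows were found for 6 of the 7 members, Gli1 being the exception. The GLI motif was in 0 of the 6 windows and in 0.253% of 32851 windows of the same length. The TCF/LEF motif was in 1 of the 6 and in 16.9% of all windows, and in Smo it read CTTTGTT. A match describes letters in a window and not a bound site.

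Ptch1 (chromosome 13, 63508328 to 63573598, minus strand, GRCm38) encodes the ligand receptor and is itself a pathway target. It stood at 140.0 and 161.4 CPM in WT, 43.3 and 39.3 CPM in QKO, 72.1 and 71.5 CPM in QT7, and 90.1 and 71.3 CPM in QT7L1. WT libraries were the highest and QKO libraries the lowest of the 8, and QT7 and QT7L1 overlapped each other in between. Relative to the WT mean, QKO was at 27.4%, QT7 at 47.6% and QT7L1 at 53.5%, and the log2 fold changes against WT were -1.87 ± 0.13, -1.07 ± 0.13 and -0.90 ± 0.13 (SE), values that chose the set. Leaving out 1 library at a time kept them between -1.97 and -1.76, -1.17 and -0.96, and -1.07 and -0.74.

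Among the edited lines, which the choice of Ptch1 did not use directly, its level rose from QKO to QT7 by 0.80 ± 0.13 on the log2 scale (SE, edgeR adjusted p = 0.00251) and from QKO to QT7L1 by 0.97 ± 0.13 (SE, edgeR adjusted p = 0.00113). Both calls held with any 1 library left out, at adjusted p up to 0.0338 and 0.0178 in edgeR. Ptch1 in QT7 and QT7L1 overlapped, with a log2 fold change of -0.17 ± 0.13 (SE, edgeR adjusted p = 0.640).

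**Figure D1:**
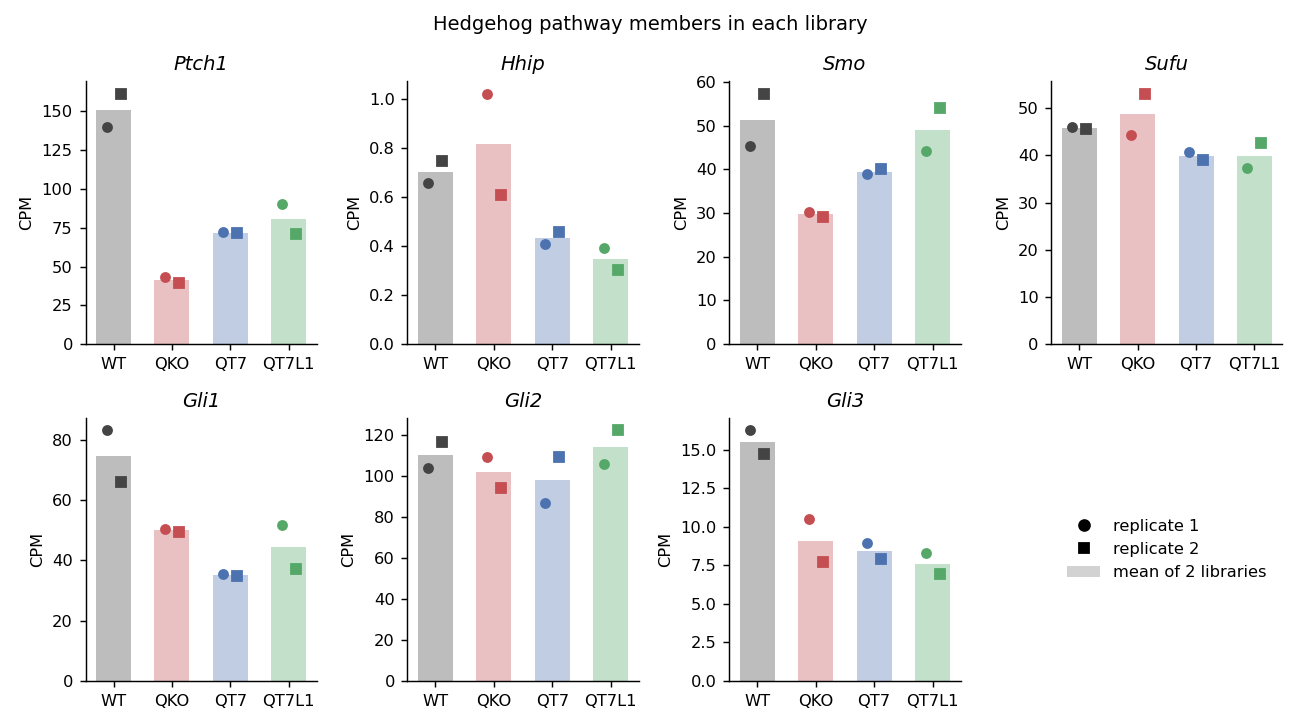
CPM (y axis, linear from 0) of each member in the 4 groups (x axis), with circles for replicate 1, squares for replicate 2 and bars for the mean of 2 libraries. Ptch1 sits at 39.3 and 43.3 CPM in QKO and at 71.3 to 90.1 CPM in QT7 and QT7L1, and WT at 140.0 and 161.4 CPM; Gli2 overlaps between all groups.

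Smo (chromosome 6, 29735503 to 29761365, plus strand) encodes the transducer that PTCH1 keeps silent. It was at 45.3 and 57.3 CPM in WT, 30.3 and 29.2 CPM in QKO, 38.9 and 40.0 CPM in QT7, and 44.1 and 54.1 CPM in QT7L1. The QKO libraries were below all 6 others, the QT7 libraries came next, and the QT7L1 range overlapped the WT range. Smo fell by 0.79 ± 0.14 on the log2 scale in QKO against WT (SE, edgeR adjusted p = 0.00449), a call that held with any 1 library left out (adjusted p up to 0.0482). It rose from QKO to QT7L1 by 0.72 ± 0.14 (SE, edgeR adjusted p = 0.00543), with adjusted p = 0.0550 without QT7L1 replicate 2. From QKO to QT7 the difference was 0.41 ± 0.14 (SE, edgeR adjusted p = 0.0579), which was called without the filter on low counts (0.0225), with library totals in place of TMM (0.0264) and without WT replicate 1 (0.0497). QT7 and QT7L1 did not overlap, but their difference of -0.32 ± 0.14 was not called (SE, edgeR adjusted p = 0.451).

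Hhip (chromosome 8, 79965851 to 80058006, minus strand) encodes a membrane protein that binds Hedgehog ligands. It was close to the floor of detection, with 21 and 33 counts in WT, 33 and 22 counts in QKO, 16 and 20 counts in QT7, and 13 and 10 counts in QT7L1. On the CPM scale these are 0.657 and 0.748, 1.02 and 0.610, 0.408 and 0.460, and 0.394 and 0.305. All 4 QT7 and QT7L1 libraries lay below all 4 WT and QKO libraries, yet no comparison of Hhip was called, the nearest being QT7L1 against QKO at -1.21 ± 0.43 (SE, edgeR adjusted p = 0.0585), which was called when only those 2 groups were fitted (0.0444).

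Sufu (chromosome 19, 46396896 to 46488804, plus strand) encodes the cytoplasmic inhibitor of GLI proteins. It was at 46.0 and 45.6 CPM in WT, 44.3 and 53.1 CPM in QKO, 40.7 and 38.9 CPM in QT7, and 37.3 and 42.5 CPM in QT7L1. The QT7 and QT7L1 libraries were all under those of WT and QKO, by small margins. Its log2 fold changes were 0.09 ± 0.12 in QKO, -0.20 ± 0.12 in QT7 and -0.20 ± 0.12 in QT7L1 against WT (SE), with edgeR adjusted p of 0.629, 0.412 and 0.488. Against QKO they were -0.29 ± 0.12 in both QT7 and QT7L1 (SE), with edgeR adjusted p = 0.106 for each.

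Gli1 (chromosome 10, 127329882 to 127341974, minus strand) encodes an activator that is itself switched on by the pathway. Levels were 83.1 and 66.0 CPM in WT, 50.4 and 49.5 CPM in QKO, 35.3 and 34.8 CPM in QT7, and 51.6 and 37.1 CPM in QT7L1. WT libraries were the highest 2 of the 8 and QT7 libraries the lowest 2, and QT7L1 spanned QKO. Gli1 fell by 1.09 ± 0.16 on the log2 scale in QT7 against WT (SE, edgeR adjusted p = 0.00866), and the call was lost without WT replicate 1 (0.0756). It fell by 0.58 ± 0.16 in QKO against WT (SE, edgeR adjusted p = 0.0254), with adjusted p of 0.153, 0.101 and 0.132 without WT replicate 1, QKO replicate 1 and QKO replicate 2. The QT7L1 difference from WT was -0.75 ± 0.16 (SE, edgeR adjusted p = 0.0719), whereas DESeq2 called it at adjusted p = 0.00102.

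Gli1 therefore did not follow the order of Ptch1, which was lowest in QKO. QT7 was lower than QKO for Gli1 by a log2 fold change of -0.51 ± 0.16 (SE, edgeR adjusted p = 0.0402) while Ptch1 was higher in QT7. That Gli1 call rested on each of the 4 libraries compared: without QKO replicate 1, QKO replicate 2, QT7 replicate 1 and QT7 replicate 2 its edgeR adjusted p was 0.144, 0.144, 0.0946 and 0.1001, and it was 0.0790 with library totals in place of TMM. Gli1 in QT7L1 against QKO was at -0.17 ± 0.16 (SE, edgeR adjusted p = 0.450). Exons of Gli1 share 265 bases with the antisense gene Gm47200, whose counts were not analysed here, and 62 bases with the antisense gene Arhgap9, which had 87 to 193 counts per library. The strand setting of the counting is not given in the sources used here, so reads in those stretches cannot be assigned with certainty.

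Gli2 (chromosome 1, 118834132 to 119053619, minus strand) encodes the main GLI activator. It was at 103.6 and 116.4 CPM in WT, 109.4 and 94.3 CPM in QKO, 86.8 and 109.4 CPM in QT7, and 105.8 and 122.3 CPM in QT7L1. Every pair of groups overlapped, and group means stood at 92.6%, 89.2% and 103.7% of WT in QKO, QT7 and QT7L1. No comparison of Gli2 was called, with log2 fold changes between -0.22 ± 0.14 (QT7 against QT7L1) and 0.16 ± 0.14 (QT7L1 against QKO).

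Gli3 (chromosome 13, 15463235 to 15730026, plus strand) encodes the main GLI repressor. It was at 16.3 and 14.7 CPM in WT, 10.5 and 7.71 CPM in QKO, 8.96 and 7.89 CPM in QT7, and 8.33 and 6.91 CPM in QT7L1. WT libraries were above all 6 edited libraries, and the edited groups overlapped each other. Gli3 fell by 0.77 ± 0.20 in QKO (SE, edgeR adjusted p = 0.0210) and by 0.88 ± 0.20 in QT7 (SE, edgeR adjusted p = 0.0403) on the log2 scale against WT, and lay at -1.02 ± 0.21 in QT7L1 (SE, edgeR adjusted p = 0.0540), where DESeq2 gave adjusted p = 0.000619. The QKO call was lost without WT replicate 1 (0.0930), WT replicate 2 (0.0781) or QKO replicate 2 (0.170). The QT7 call held in 2 of 8 leave-one-out fits, at adjusted p from 0.0488 to 0.242. Among the edited lines, Gli3 differences were within -0.25 ± 0.21 and 0.14 ± 0.21 (SE) and none was called. Exons of Gli3 share 188 bases with the antisense gene Gm6556, which had 0 to 6 counts per library, with the same doubt about strand.

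**Figure D2:**
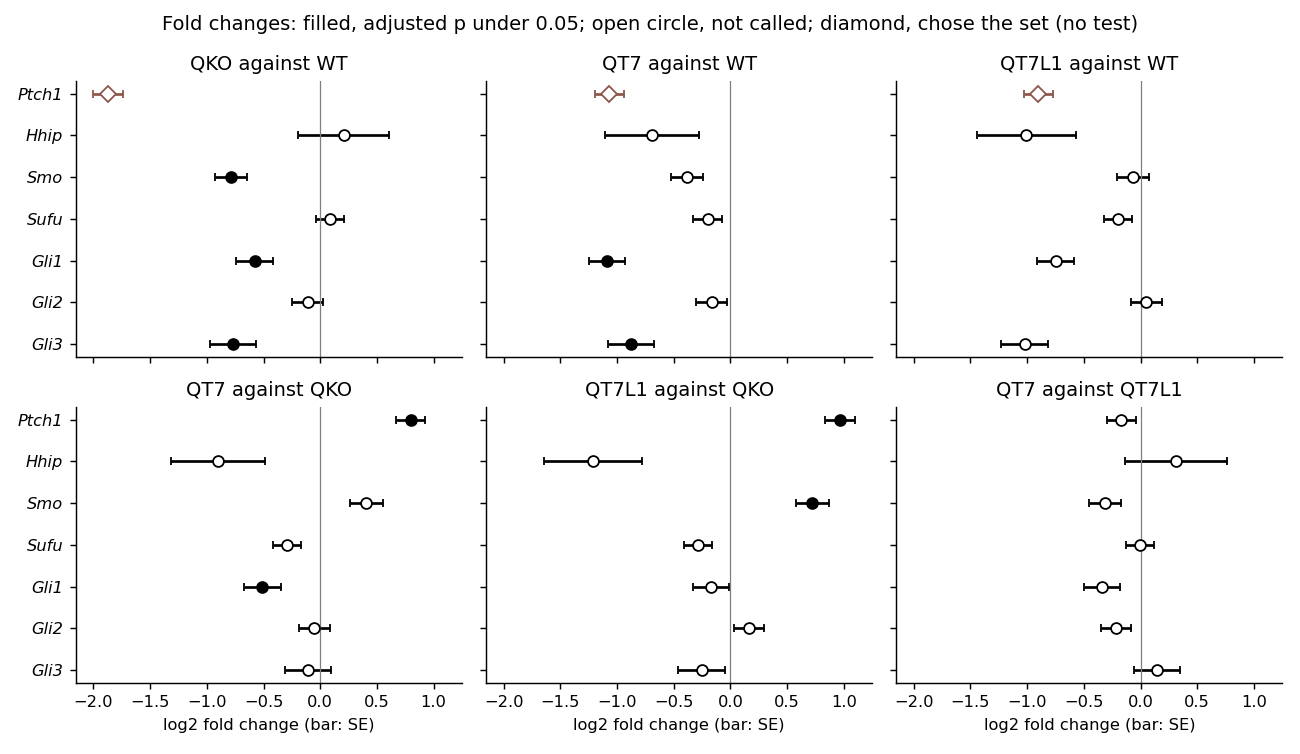
Log2 fold change (x axis) of each member (y axis) in the 6 comparisons, with bars of 1 SE; filled circles were called at adjusted p under 0.05, open circles were not, and diamonds are the Ptch1 values that chose the set. Ptch1 is filled at 0.80 and 0.97 in QT7 and QT7L1 against QKO, and Gli1 is filled at -1.09 in QT7 against WT.

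Counted over the members, 3 of 6 fell in QKO against WT (Smo, Gli1 and Gli3) and none rose, in a comparison where 26.4% of all genes were called, 11.7% higher and 14.7% lower. In QT7 against WT, 2 of 6 fell (Gli1 and Gli3), beside 4.62% of all genes, 2.37% higher and 2.25% lower. That count was 0 without WT replicate 1, and 1 without WT replicate 2 or without any 1 of the QT7 and QT7L1 libraries. In QT7L1 against WT, 0 of 6 were called by edgeR, beside 0.745% of all genes, 0.297% higher and 0.448% lower; 3 had an unadjusted p under 0.05, all lower, and DESeq2 called 2. Without either 1 of the QT7 libraries edgeR called 2, Gli1 (adjusted p = 0.0411 and 0.0423) and Gli3 (adjusted p = 0.0192 and 0.0203). The median log2 fold change of the 6 tested members was -0.34, -0.54 and -0.47 in QKO, QT7 and QT7L1 against WT, beside -0.01, 0.01 and 0.00 over all genes. These 3 comparisons share the WT libraries.

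Against QKO, 1 member rose and 1 fell of 7 in QT7 (26.9% of all genes, 14.8% higher and 12.1% lower), and 2 of 7 rose in QT7L1 (29.7% of all genes, 15.9% higher and 13.9% lower). Both counts lie near the share of all genes. The members' medians were -0.11 and -0.17, beside 0.04 and 0.02 over all genes. Between QT7 and QT7L1, 0 of 7 members were called by edgeR, 0 had an unadjusted p under 0.05 and DESeq2 called 0, in a comparison with 1 call in all (0.00606% of genes). Without QKO replicate 2 the count of members called was 1 in QKO against WT, as it was without WT replicate 1, and in QT7 against QKO it was 1 without either QKO or either QT7 library.

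In the authors' deposited tables, 2 members beyond the edgeR calls were significant, both in WT over QT7L1: Gli1 at a log2 fold change of 0.70 (adjusted p = 0.00171) and Gli3 at 0.91 (adjusted p = 0.000877). The same tables list Smo in QKO over QT7L1 at -0.66 (adjusted p = 0.00024) and Gli1 in QKO over QT7 at 0.49 (adjusted p = 0.0165).

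Levels can be ordered between genes only per length of exon. In WT, Gli2 was at 16.02 ± 1.31 and Gli1 at 14.9 ± 2.42 CPM per kb, followed by Ptch1 at 10.6 ± 1.07, Smo at 9.13 ± 1.51, Sufu at 5.95 ± 0.0379, Gli3 at 1.62 ± 0.115 and Hhip at 0.0774 ± 0.00708 CPM per kb (SD, n = 2). Gli2 and Gli1, and Ptch1 and Smo, did not differ beyond their spread. Ptch1 per kb thus stood above Sufu in WT, and below it in QKO, where Ptch1 was at 2.91 ± 0.203 and Sufu at 6.33 ± 0.809 CPM per kb (SD, n = 2).

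Of the summed CPM per kb of the 3 GLI genes, Gli1 made up 45.7 ± 5.71% in WT, 38.9 ± 2.33% in QKO, 31.8 ± 3.45% in QT7 and 33.7 ± 7.21% in QT7L1 (SD, n = 2). Gli2 made up 49.3 ± 5.88%, 57.5 ± 1.802%, 64.2 ± 4.20% and 63.3 ± 7.56% (SD, n = 2). Gli3 made up 4.96 ± 0.168%, 3.66 ± 0.528%, 3.997 ± 0.745% and 3.02 ± 0.344% (SD, n = 2). The Gli1 share of both WT libraries was above that of the other 6, by a small margin between WT replicate 2 (41.7%) and QKO replicate 2 (40.5%).

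**Figure D3:**
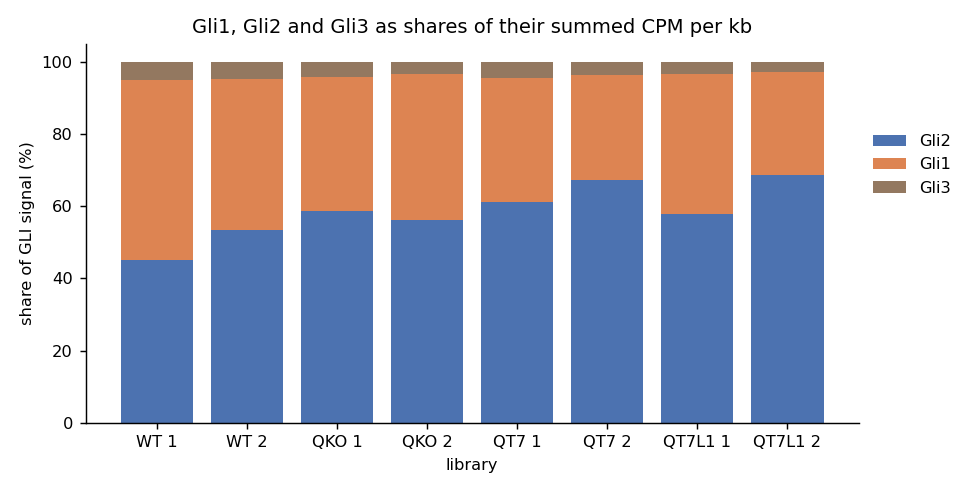
Share of each GLI gene (y axis, percent) in the summed CPM per kb of Gli1, Gli2 and Gli3, with 1 bar per library (x axis). Gli1 makes up 49.8% and 41.7% in WT and between 28.6% and 40.5% in the edited libraries.

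Across the 8 libraries, Pearson's r of log2 CPM was 0.83 for Ptch1 with Smo and 0.85 for Gli1 with Gli3, and 0.55 for Ptch1 with Gli1. These are descriptions over 8 libraries that share their groups. Of 10203 genes ranked by likeness to Ptch1, the closest were Napsa (r = 0.989), Ctc1 (r = 0.986), Rab11fip1 (r = 0.981), Lsm14b (r = 0.976) and Ica1 (r = 0.976). Napsa ran at 11.4 and 11.3 CPM in WT, 4.16 and 4.02 CPM in QKO, 6.46 and 7.18 CPM in QT7 and 7.51 and 6.30 CPM in QT7L1. Gli2 was most like Rara (r = 0.986), Mkrn1 (r = 0.960) and Dbn1 (r = 0.958).

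The ligands were scarcely transcribed. Shh, which codes for Sonic hedgehog, had 0 or 1 count per library and was not tested, while Ihh had 7 to 23 counts and Dhh 7 to 28 counts. Of 8 tested ligand and ligand-release genes, 2 fell in QKO against WT (26.4% of all genes called) and 2 rose in each of QT7 (26.9%) and QT7L1 (29.7%) against QKO, shares near those of all genes. With 1 library left out these counts ran from 1 to 4, 1 to 3 and 0 to 3, and the last was 0 without any 1 of the QKO or QT7L1 libraries. Scube3, a secreted protein that aids ligand release, was the best supported, at 16.8 and 21.1 CPM in WT, 8.56 and 7.98 CPM in QKO, 15.5 and 16.6 CPM in QT7, and 11.99 and 11.7 CPM in QT7L1. It fell by 1.20 ± 0.17 in QKO (SE, edgeR adjusted p = 0.00157) and rose by 0.96 ± 0.17 from QKO to QT7 (SE, edgeR adjusted p = 0.00354), calls that held with any 1 library left out. Its rise from QKO to QT7L1, by 0.52 ± 0.17 (SE, edgeR adjusted p = 0.0422), did not hold without either QKO library (0.111 and 0.199) or either QT7L1 library (0.147 and 0.128). Neither Ihh nor Dhh was called in any comparison.

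Receptors and coreceptors besides the members moved in both directions. Of 8 tested, 2 fell in QKO against WT, 1 rose and 1 fell in QT7 against WT, 3 rose and 2 fell in QT7 against QKO, and 2 rose and 2 fell in QT7L1 against QKO, beside 26.4%, 4.62%, 26.9% and 29.7% of all genes called in either direction. With 1 library left out, the total called ran from 0 to 2, 0 to 3, 2 to 5 and 1 to 6. The lowest value against QKO came without QKO replicate 2 in both comparisons, the 0 in QKO against WT without WT replicate 2 or QKO replicate 2, and the 0 in QT7 against WT without any 1 of the WT and QT7L1 libraries or QT7 replicate 1. None of the 8 was called by edgeR in QT7L1 against WT or between QT7 and QT7L1, counts near the 0.745% and 0.00606% of all genes. In these comparisons 3 and 2 had an unadjusted p under 0.05, and DESeq2 called 3 and 0.

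The coreceptor Boc was at 4.01 and 4.74 CPM in WT, 4.50 and 3.46 CPM in QKO, 11.4 and 8.46 CPM in QT7, and 7.57 and 9.23 CPM in QT7L1. It rose by 1.32 ± 0.24 in QT7 (SE, edgeR adjusted p = 0.00427) and by 1.08 ± 0.24 in QT7L1 (SE, edgeR adjusted p = 0.00931) against QKO, calls lost without QKO replicate 2 (0.0526 and 0.0897) and, for QT7L1, without QT7L1 replicate 2 (0.0752). Gas1, another coreceptor, had 22 to 90 counts and lay at -1.34 ± 0.34 in QKO against WT (SE, edgeR adjusted p = 0.0187), a call lost without WT replicate 2 (0.149), QKO replicate 1 (0.0587) or QKO replicate 2 (0.131). Gpr161, a receptor that restrains the pathway in the cilium, fell by 1.39 ± 0.32 in QKO against WT (SE, edgeR adjusted p = 0.0111), a call lost without WT replicate 2 (0.0638) or QKO replicate 2 (0.0987). Cdon, the third coreceptor, rose by 0.48 ± 0.13 from QKO to QT7 (SE, edgeR adjusted p = 0.0244), with adjusted p of 0.118 and 0.114 without either QKO library and 0.0545 without QT7 replicate 2. Its levels ran from 18.3 to 26.3 CPM over all 8 libraries.

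Of 17 intracellular regulators of GLI besides Sufu, 2 fell in QKO against WT, beside 26.4% of all genes. By edgeR 0 were called in QT7 or QT7L1 against WT, beside 4.62% and 0.745% of all genes, so these counts lie near those shares. In these comparisons 5 and 1 had an unadjusted p under 0.05, and DESeq2 called 0 in both. Against QKO, 3 rose and 1 fell in QT7 (26.9% of all genes) and 2 rose and 1 fell in QT7L1 (29.7%). With either QKO library left out the count called was 1 in QT7 against QKO, and it was 1 in QT7L1 against QKO without any 1 of the QKO and QT7L1 libraries; in QKO against WT it was 1 without either QKO library, WT replicate 2 or QT7L1 replicate 1. Of the 4 calls in QT7 against QKO, Btrc held in 0 and Arrb2 in 1 of 8 leave-one-out fits. Arrb1, a beta-arrestin that helps carry SMO to the cilium, followed Ptch1 in order: 39.1 and 43.3 CPM in WT, 10.9 and 14.0 CPM in QKO, 27.0 and 34.0 CPM in QT7, and 30.2 and 34.2 CPM in QT7L1. It fell by 1.73 ± 0.17 in QKO against WT (SE, edgeR adjusted p = 0.000569) and rose by 1.29 ± 0.17 and 1.37 ± 0.17 in QT7 and QT7L1 against QKO (SE, edgeR adjusted p = 0.00127 and 0.000934), in every leave-one-out fit. Kif7, a ciliary kinesin that organises GLI processing, was at 24.4 to 30.4 CPM and was not called in any comparison.

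**Figure D4:**
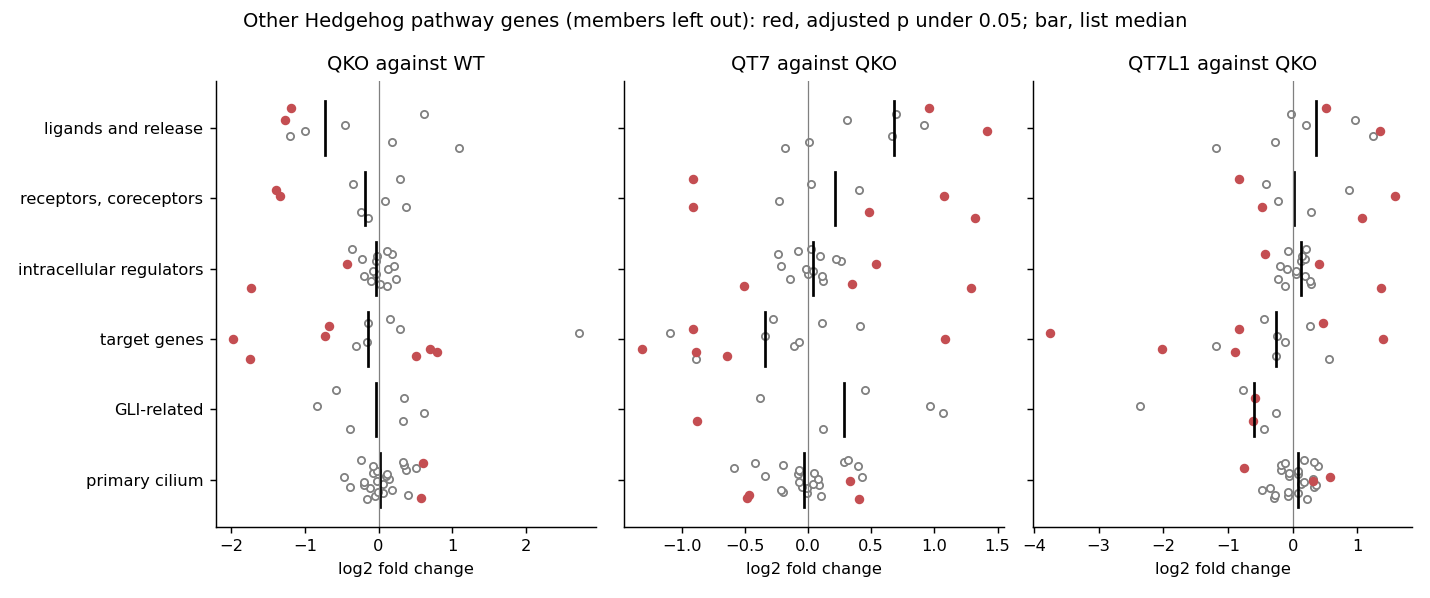
Log2 fold change (x axis, with ranges that differ between panels) of the other genes of 6 Hedgehog lists (y axis), the members left out; red points were called, grey points were not, and black bars are list medians. Called genes stand on both sides of 0 in the receptor list, and the median of the cilium list lies at 0.03, -0.03 and 0.08.

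Hedgehog target genes besides the members were called in both directions: of 13 tested, 3 rose and 4 fell in QKO against WT, 0 rose and 3 fell in QT7, and 0 rose and 2 fell in QT7L1, beside 26.4%, 4.62% and 0.745% of all genes called in either direction. The totals of 7, 3 and 2 became 3 without any 1 of the WT and QKO libraries, 1 without QT7 replicate 1 or either WT library, and 0 without WT replicate 1 or either QT7L1 library. Mycn, a growth-promoting transcription factor, was at 247 and 182 CPM in WT, 122 and 136 CPM in QKO, 103 and 101 CPM in QT7, and 115 and 102 CPM in QT7L1, with WT above all 6 edited libraries. It fell by 0.73 ± 0.14 in QKO (SE, edgeR adjusted p = 0.00515) and by 1.07 ± 0.14 in QT7 (SE, edgeR adjusted p = 0.00476) against WT, in every leave-one-out fit, and by 0.98 ± 0.14 in QT7L1 (SE, edgeR adjusted p = 0.0165), lost without WT replicate 1 (0.107) or either QT7L1 library (0.119 and 0.205). Mycn also has other regulators in stem cells, as do the other listed targets.

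Jag2, a Notch ligand, ran at 50.9 and 54.8 CPM in WT, 15.3 and 11.7 CPM in QKO, 20.3 and 36.8 CPM in QT7, and 35.4 and 35.2 CPM in QT7L1. It fell by 1.97 ± 0.26 in QKO against WT (SE, edgeR adjusted p = 0.00167), in every leave-one-out fit. The cyclin gene Ccnd1 moved the other way, at 199 and 152 CPM in WT, 281 and 327 CPM in QKO, 156 and 172 CPM in QT7, and 162 and 165 CPM in QT7L1. Ccnd1 rose by 0.79 ± 0.13 in QKO against WT (SE, edgeR adjusted p = 0.00337), and was lower in QT7 and QT7L1 than in QKO by -0.89 ± 0.13 and -0.90 ± 0.13 (SE, edgeR adjusted p = 0.00201 and 0.00168), again in every leave-one-out fit.

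GLI-related zinc finger genes and primary cilium genes were also counted. Of 6 tested GLI-related genes, 0 were called in QKO against WT by edgeR (26.4% of all genes), with 2 at an unadjusted p under 0.05 and 1 by DESeq2. Glis2 fell by 0.88 ± 0.12 in QT7 against QKO (SE, edgeR adjusted p = 0.00145), in every leave-one-out fit. Glis2 also fell by 0.62 ± 0.12 in QT7L1 against QKO (SE, edgeR adjusted p = 0.00482), a call lost without QKO replicate 2 (0.0563) or QT7L1 replicate 2 (0.0501). The median log2 fold change of the 6 was -0.56 in QT7L1 against WT and -0.60 in QT7L1 against QKO, beside 0.00 and 0.02 over all genes. It was -0.03 and -0.07 in QKO and QT7 against WT, 0.285 in QT7 against QKO and 0.89 in QT7 against QT7L1. These medians are imprecise: in QT7L1 against WT, Glis1, Zic2 and Zic5 had SE of 0.64, 1.22 and 0.56 and were not called. Of 26 cilium genes, 2 rose in QKO against WT (B9d1 and Tmem107), 2 rose and 2 fell in QT7 against QKO, and 2 rose and 1 fell in QT7L1 against QKO, beside 26.4%, 26.9% and 29.7% of all genes. The first count was 0 without any 1 of the WT and QKO libraries, the second 0 without either QKO library, and the third 0 without QKO replicate 2 or either QT7L1 library. Median log2 fold changes of the cilium list were 0.03 in QKO against WT and 0.05 and 0.11 in QT7 and QT7L1 against WT. Of 72 calls among these pathway genes and the 4 TCF/LEF genes, 19 were kept with any 1 library left out.

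Markers of other cell types moved with the libraries. The 21 fibroblast markers summed to 217 and 138 CPM in WT, 278.6 and 84.8 CPM in QKO, 91.8 and 140 CPM in QT7 and 75.9 and 102 CPM in QT7L1; Lum was at 0 in all 8 libraries, Dcn in 5 and Postn in 3. In QKO replicates 1 and 2, which differed most in this sum, Ptch1 was at 43.3 and 39.3 CPM, Gli1 at 50.4 and 49.5 CPM, Smo at 30.3 and 29.2 CPM, Gli2 at 109.4 and 94.3 CPM, Gli3 at 10.5 and 7.71 CPM, Sufu at 44.3 and 53.1 CPM, and Hhip at 1.02 and 0.610 CPM. In this pair every member except Sufu was higher in the library with the higher marker sum. The other pairs differed, and in each of them Ptch1 was lower in the library with the higher sum. Members higher there were Gli1, Gli3 and Sufu in WT, and Gli2, Smo and Hhip in QT7. In QT7L1 they were Gli2, Smo and Sufu, and the remaining members were lower. How all genes split in these pairs was not computed. The 10 endoderm markers summed to 256 and 367 CPM in WT and to 454 to 798 CPM in the edited libraries, but most of this was Sparc, with a mean of 489 CPM. The other 9 summed to 38.7 and 100.006 CPM in WT and to 32.6 to 73.4 CPM in the edited libraries, which overlapped, with Afp and Ttr each at 0 in 7 of 8 libraries. The 10 neural markers, led by Tubb3, summed to 177 and 148 CPM in WT, 218 and 165 CPM in QKO, 117 and 107 CPM in QT7 and 113 and 99.8 CPM in QT7L1, with Neurog2 at 0 in all 8. All 4 QT7 and QT7L1 libraries lay below all 4 WT and QKO libraries in this sum, most of which was Tubb3 (mean 98.0 CPM) and Nes (mean 25.1 CPM). Of 6 neural markers tested by edgeR, 1 fell in QT7 against WT (Nes) and 0 in QT7L1 against WT. All genes were called at 4.62% and 0.745% there. None of the 6 rose against WT in these 2 lines, and Sox1 stood at log2 fold changes of 0.09 and 0.12. Against QKO, 2 of the 6 fell in QT7 (Sox3 and Nes) and 3 in QT7L1 (Sox3, Tubb3 and Nes), and 0 rose. All genes were called at 26.9% and 29.7% there, in either direction. Sox3 was itself higher in QKO than in WT, by 1.22 ± 0.28 (SE, edgeR adjusted p = 0.0116). The 10 mesoderm markers summed to 11.7 to 23.2 CPM. The part of these cell types in the Hedgehog values was not tested.

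**Figure D5:**
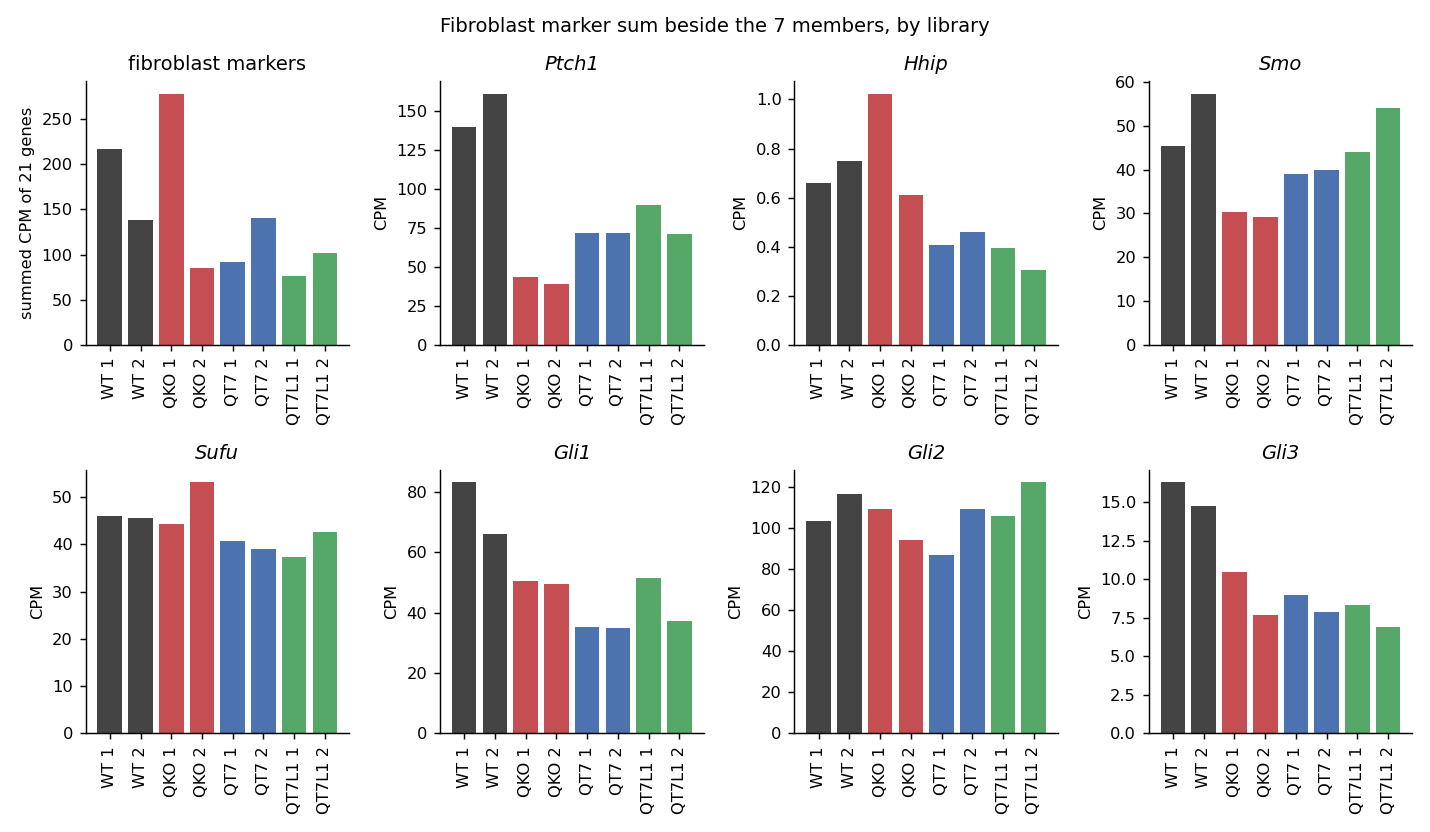
Summed CPM of 21 fibroblast markers (top left) and CPM of the 7 members (y axes, linear from 0) in each library (x axis). The marker sum is highest in QKO replicate 1 (278.6 CPM) and lower in QKO replicate 2 (84.8 CPM), between which Ptch1 differs by 43.3 against 39.3 CPM and Gli3 by 10.5 against 7.71 CPM. In WT, QT7 and QT7L1, Ptch1 is lower in the library with the higher marker sum.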

How the data were processed

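Per the labels' protocols, a stranded TruSeq mRNA kit was used on 250 ng of RNA. Per the submitters' processing notes, bcl2fastq 1.8.4, STAR 2.4.0f1, HTSeq and DESeq2 (listed as 2.1.8.3) were used with mm10 (GRCm38). The deposited library files hold raw counts per Ensembl gene. The authors' deposited tables hold log2 fold changes with SE and p-values, used only where named. In them, 27 symbols turned into dates or numbers were restored. Exon lengths came from GENCODE M21 and promoters from RefSeq.

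The analysis used edgeR 4.0.16 (R 4.3.3): filterByExpr, TMM, a robust quasi-likelihood fit with 1 mean per group over 8 libraries (4 residual degrees of freedom) and 2-sided F tests in 6 comparisons. SE was computed as |log2 fold change| over the root of F. The log2 CPM used for correlations had a prior count of 2. Fits were tested on simulated data. Alternatives were no filter, DESeq2 size factors, library totals, DESeq2 1.42.0, 2-group fits, a replicate block and each library left out; its effect on the list counts, and the endoderm sum without its most abundant marker, were added after seeing the data. Named genes are the members, called genes of each list (at most 6 per comparison, by smallest adjusted p) and a few set pathway genes; some results that this rule selects are not reported here. The members, lists and comparisons were chosen with earlier results of these data known.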

Additional observations from a re-analysis of the deposited data

How the results depend on the processing

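With 2 libraries a group, the weaker calls depend on single libraries. Numbers of genes called in QT7 against WT were 2203 without the filter on low counts, 1288 with DESeq2 and 117 when only the 2 groups were fitted (1 member called); in QT7L1 against WT they were 1248, 575 and 614, and in QT7 against QT7L1 1030, 236 and 20, with 4 by library totals. Members called in QT7L1 against WT were 2 without the filter, 1 by library totals, 2 with DESeq2 and 1 in the 2-group fit. Leaving out 1 library gave 1272 to 5497 genes in QKO against WT, 52 to 2023 in QT7 against WT, 0 to 517 in QT7L1 against WT, 1432 to 4355 in QT7 against QKO, 1704 to 5971 in QT7L1 against QKO and 0 to 1564 in QT7 against QT7L1; members called were 1 to 3, 0 to 2, 0 to 2, 1 to 3 and 1 to 2 in the first 5.

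Small member differences changed sign, none of them called. On the log2 scale, Sufu in QT7 against QT7L1 was 0.0037 without the filter and 0.0334 by library totals, and Gli2 in QT7 against QKO was 0.0483 by library totals. With 1 library left out, Sufu ran from -0.0533 to 0.2053 and Hhip from -0.2165 to 0.5307 in QKO against WT, Gli2 from -0.0514 to 0.1583 and Smo from -0.2248 to 0.1153 in QT7L1 against WT, Gli2 from -0.2266 to 0.1113 and Gli3 from -0.3196 to 0.1278 in QT7 against QKO, Gli1 from -0.4194 to 0.0551 in QT7L1 against QKO, and Ptch1 from -0.3287 to 0.0088 and Sufu from -0.0981 to 0.0933 in QT7 against QT7L1. The cause was not tested. Depth limits Hhip, Ihh and Dhh, each at 33 counts or fewer per library.

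Correlations of the replicate differences between groups ran from -0.205 to 0.164. No pairing of the libraries by replicate number was evident, though such correlations cannot exclude one. With the replicate number as a block, 2 members were called in QT7L1 against WT (Gli1 at 0.0321 and Gli3 at 0.0309), 2 genes in QT7 against QT7L1, Smo in QT7 against QKO had adjusted p = 0.0470, and Sufu in QT7 against QT7L1 was 1e-04.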
